A study of Mus musculus with 8 samples.

Results

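The genes described here encode the calcium-activated phosphatase calcineurin, the NFAT transcription factors it acts on and the regulators of calcineurin known as RCAN proteins. They are Rcan1, Rcan2, Ppp3ca, Ppp3cb, Ppp3r1, Nfatc1, Nfatc2, Nfatc3 and Nfatc4, which is 9 of the 33105 genes in the count table. They were found by symbol through their Ensembl mouse gene identifiers, and all 9 passed the filter on low counts. Heart tissue of C57BL/6J mice was compared between mice with mitral regurgitation (MR), made by a minimally invasive operation, and Sham mice, with 4 libraries in each group. The series set out to find signalling pathways and marker genes of the hypertrophy that follows volume overload. The sources used here state no age, sex, time after surgery or part of the heart, and the strain is the same in both groups.

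Calcineurin is made of a catalytic subunit and a calcium-binding regulatory subunit. Calmodulin switches the enzyme on when calcium in the cell stays high. The active enzyme removes phosphate from NFAT proteins, which then enter the nucleus and act with partners such as GATA4 and MEF2 on their target genes. In the mouse heart forced activity of this pathway drives hypertrophy. Rcan1 is itself a target of calcineurin and NFAT, and the level of its transcripts from an internal start site is widely read as a sign of their activity.

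Total counts ran from 42291511 to 58658094 per library, and the lowest count of any of the 9 genes in any library was 195, for Nfatc4. Levels are given as counts scaled to a common library total (CPM). Over the whole table the edgeR quasi-likelihood test called 76 of 16603 genes tested at an adjusted p under 0.05, which is 0.458%, with 40 higher (0.241%) and 36 lower (0.217%) in MR. That split was 53 higher and 17 lower when libraries were scaled by their totals alone, and 114 higher and 190 lower when a trend with gene length was removed. Leaving out 1 library gave 3 to 887 called genes, with the highest number without Sham replicate 3 and the lowest without Sham replicate 2. The tissue carried the markers of ventricular heart muscle, with Myl2 at 5681 ± 427 CPM in MR and 6994 ± 704 CPM in Sham (SD, n = 4), while the atrial light chain Myl7 was at 3.38 ± 1.25 CPM in MR and 2.10 ± 1.97 CPM in Sham. Separate animals are not stated for the libraries, and p-values therefore cover only the spread seen among them, which may be technical. The titles give each group numbers from a separate range, and the labels name no batch. A difference in handling that follows the groups cannot be told apart from MR.

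Of the 9 genes, 0 passed the threshold in the edgeR test over all genes, against 0.458% of all genes tested. At an unadjusted p under 0.05 in edgeR there was 1, Rcan1, which was higher in MR, against 15.1% of all genes tested in either direction and 7.78% higher in MR. DESeq2 and limma-voom with quality weights each called 1 of the 9, again Rcan1, where they called 4.14% and 2.75% of all genes tested. Rcan1 was also the 1 gene of the 9 whose MR values did not overlap its Sham values, where 8.10% of all genes tested had groups that did not overlap and 4.19% had MR above Sham. The log2 fold changes of the 9 genes had a median of −0.02, with 3 positive and 6 negative. Over all genes tested the median was 0.00193, and 50.4% were positive.

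**Figure D1:**
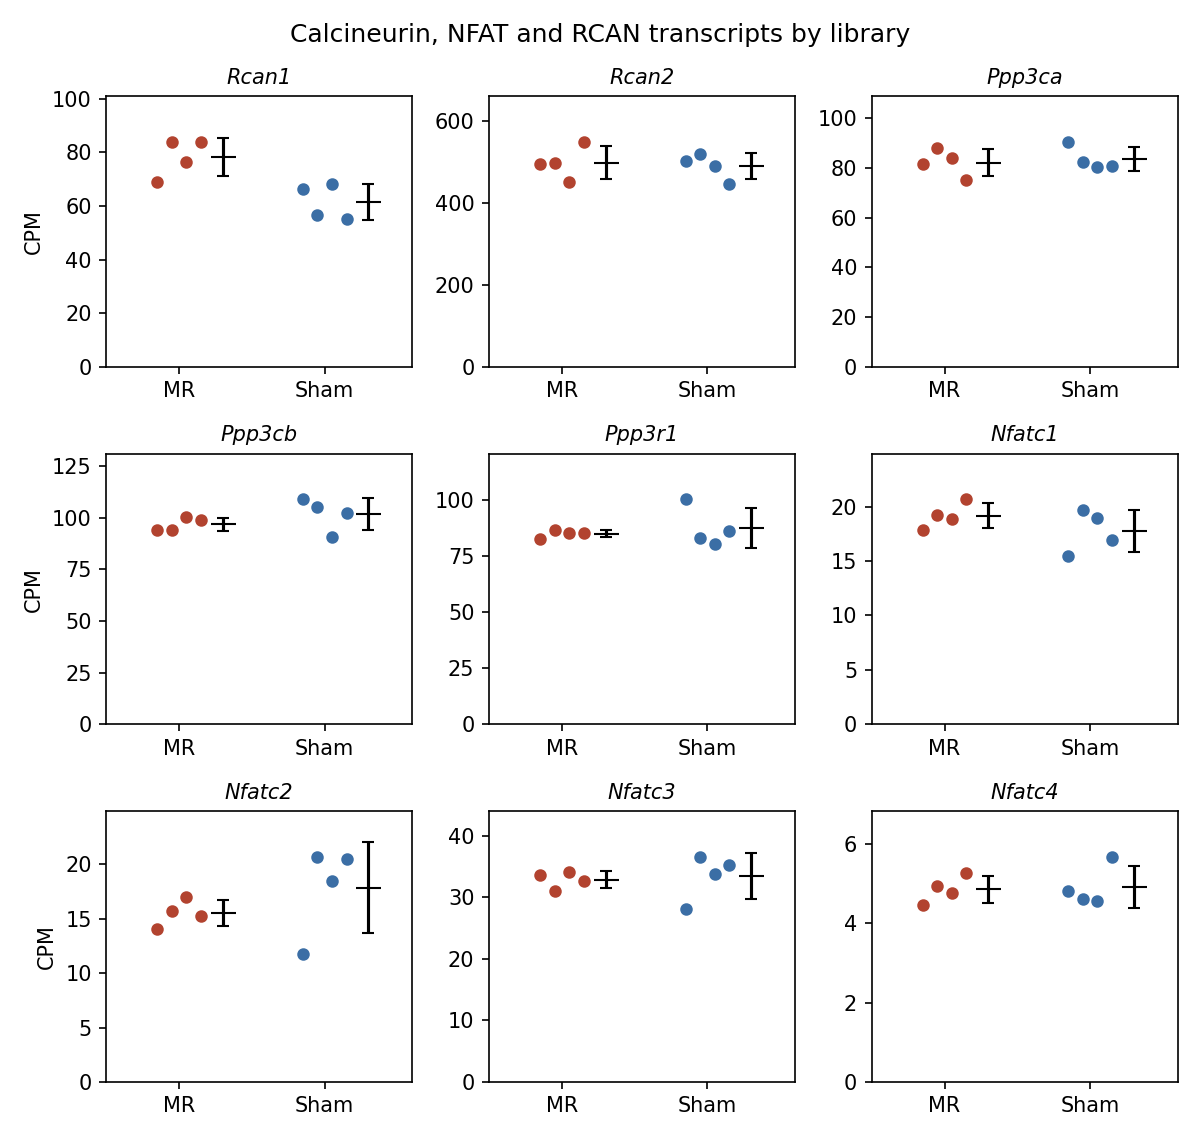
Level of each of the 9 genes in CPM (y axes start at 0) in the 4 MR and 4 Sham libraries, with points for libraries and a bar for the mean and SD. Rcan1 had all 4 MR libraries above all 4 Sham libraries, and the groups overlapped in the other 8 genes.

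Rcan1 (ENSMUSG00000022951, protein-coding, minus strand of chromosome 16, 92391953 to 92470867, GRCm38) encodes a protein that binds calcineurin and can inhibit it. It measured 68.8, 84.0, 76.6 and 83.7 CPM in MR replicates 1 to 4, and 66.4, 56.6, 68.1 and 55.1 CPM in Sham replicates 1 to 4. All 4 MR libraries were above all 4 Sham libraries, but MR replicate 1 and Sham replicate 3 were close, and Sham replicate 1 was not far below. The means were 78.3 ± 7.20 CPM in MR and 61.6 ± 6.65 CPM in Sham (SD, n = 4). The log2 fold change of MR over Sham was 0.35 (SE 0.09), a ratio of 1.27 with a 95% interval of 1.12 to 1.45. Its p of 0.00149 in edgeR ranked 285 among the genes tested, and the adjusted p was 0.0862, so the difference did not pass over all genes.

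Whether Rcan1 passed depended on the tool, the filter and a single library. The adjusted p was 0.0181 in DESeq2, 0.0415 in limma-voom with quality weights and 0.00127 in edgeR with no filter on low counts. With no filter the log2 fold change was 0.347 (SE 0.0801), beside 0.347 (SE 0.0881) with the filter. The unadjusted p in edgeR was 1.45e-05 without the filter and 0.00149 with it, a far larger change than that of the estimate or SE. For Akap5, described below, it was 3.49e-19 and 0.000166, while for Nfatc1 it was 0.228 and 0.229. The low p-values of the fit with no filter are therefore not taken as firmer evidence for Rcan1, and their cause was not tested. The fit with no filter called 936 of 30605 genes tested. Without Sham replicate 3, whose Rcan1 level was the highest of the Sham libraries, the adjusted p in edgeR was 0.0223. With any other library left out it did not pass, and the highest adjusted p was 0.269, without Sham replicate 4. The log2 fold change was between 0.30 and 0.40 in all 8 of these fits and between 0.32 and 0.39 under the 8 other settings.

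**Figure D2:**
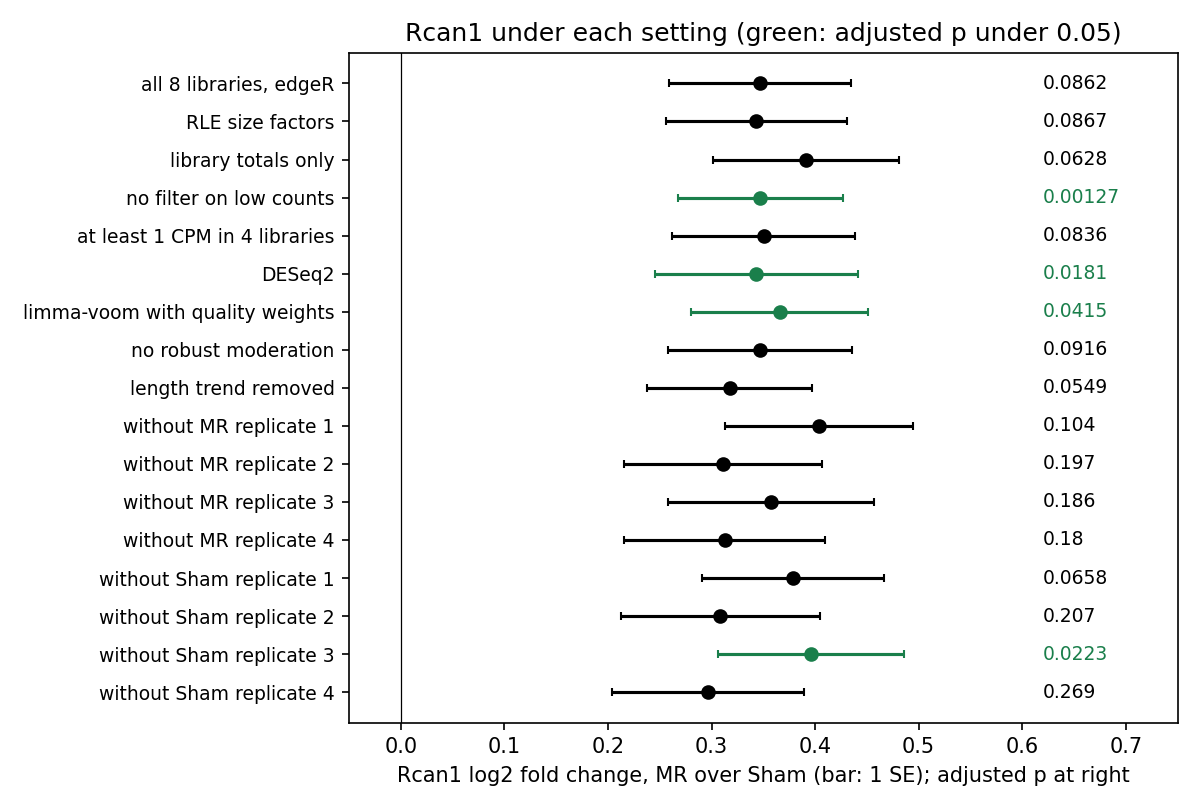
Log2 fold change of Rcan1, MR over Sham, with 1 SE, under each setting, with the adjusted p at the right and settings with an adjusted p under 0.05 in green. The estimate lay between 0.30 and 0.40 in each setting, while the adjusted p ran from 0.00127, with no filter on low counts, to 0.269. The low p with no filter came with nearly the same estimate and SE as with the filter.

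Markers of some cell types differed between the groups too, and their part in the level of Rcan1 was not tested. The summed level of 7 heart muscle markers was 37039 to 41743 CPM in MR and 41911 to 48719 CPM in Sham, without overlap. The summed level of 6 macrophage markers was 182 to 204 CPM in MR and 206 to 223 CPM in Sham, and that of 5 neutrophil markers was at most 5.82 CPM in MR and 8.10 to 56.8 CPM in Sham. Markers of fibroblasts (1624 to 1743 CPM in MR, 1602 to 1709 CPM in Sham), of endothelium (736 to 787 CPM in MR, 626 to 760 CPM in Sham) and of smooth muscle and pericytes (923 to 1029 CPM in MR, 859 to 934 CPM in Sham) overlapped between the groups. The members of a list did not all differ alike, and none of those named next passed in edgeR. Of the heart muscle markers, Myh6, Tnnt2, Tnni3 and Myl2 had log2 fold changes of −0.28, −0.36, −0.33 and −0.30, while Ryr2, Myl3 and Actn2 were at −0.06, −0.06 and −0.0042. Of the macrophage markers, the receptor genes Mrc1 and Cd163 were at −0.29 and −0.36, while Adgre1, Csf1r, C1qa and Cd68 were at −0.07, 0.0054, 0.10 and 0.12. The median log2 fold change was −0.28 over the heart muscle list and −0.03 over the macrophage list. No marker of these lists was at 0 in every library. In bulk tissue, fewer cells of a type and less RNA per cell cannot be told apart.

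Rcan1 has 2 start sites in RefSeq that lie 66091 bases apart. The gene annotation used here also lists protein-coding Rcan1 transcripts that start at 92458475 and 92470867. The deposited counts are given per gene and do not separate the starts, so which of them differed was not measured. The 250 bases before each RefSeq start are shown because the internal site is the one described as responsive to NFAT. They are read 5′ to 3′ on the minus strand of GRCm38.p6, and capitals mark GGAAA, the core that NFAT proteins bind, or its reverse complement TTTCC.
Rcan1 upstream start, chr16:92466170-92466419: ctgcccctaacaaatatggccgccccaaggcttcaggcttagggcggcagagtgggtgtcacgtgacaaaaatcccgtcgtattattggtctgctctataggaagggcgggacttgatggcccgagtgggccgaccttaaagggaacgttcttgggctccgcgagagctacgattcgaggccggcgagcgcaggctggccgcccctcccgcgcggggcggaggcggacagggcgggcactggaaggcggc
Rcan1 internal start, chr16:92400079-92400328: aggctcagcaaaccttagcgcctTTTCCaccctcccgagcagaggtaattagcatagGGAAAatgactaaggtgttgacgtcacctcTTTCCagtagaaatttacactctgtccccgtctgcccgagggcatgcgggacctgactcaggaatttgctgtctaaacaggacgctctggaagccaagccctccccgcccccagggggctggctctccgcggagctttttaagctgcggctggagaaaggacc

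The window before the internal start held 3 matches to GGAAA on either strand and the window before the upstream start held 0. Among 32841 windows of the same length in the RefSeq table, 55.6% held at least 1 match and 6.39% held at least 3. The internal window also held 1 match to TGANTCA, the letters that AP-1 factors bind, as did 6.75% of all windows, and this match did not overlap the others. Windows were found for 7 of the 9 genes, 12 windows in all, of which 7 held at least 1 match to GGAAA. Windows of Ppp3cb, Nfatc2 and Nfatc4 also held 3. Such matches describe letters and do not show binding.

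Rcan2 (ENSMUSG00000039601, protein-coding, chromosome 17, 43801351 to 44039516), a relative of Rcan1 that also binds calcineurin, measured 497, 498, 452 and 551 CPM in MR replicates 1 to 4, and 503, 521, 492 and 448 CPM in Sham replicates 1 to 4. The groups overlapped, and their lowest values were close together. The log2 fold change was 0.02 (SE 0.08, adjusted p = 0.923), and the 95% interval of the ratio was 0.903 to 1.15. The log2 ratio of Rcan1 to Rcan2 within a library was −2.85, −2.57, −2.56 and −2.72 in MR and −2.92, −3.20, −2.85 and −3.02 in Sham. The ratio was higher in MR on average, by 0.32, but MR replicate 1 and Sham replicate 3 met at −2.85. It was described without a test. Per kilobase of exon, Rcan1 made up 18.2% ± 1.42 of the summed Rcan1 and Rcan2 level in MR and 15.1% ± 1.32 in Sham (SD, n = 4).

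The catalytic subunit genes overlapped between the groups. Ppp3ca (ENSMUSG00000028161, protein-coding, chromosome 3, 136670124 to 136937727), which encodes the alpha isoform, measured 81.4, 88.1, 84.1 and 75.2 CPM in MR, and 90.6, 82.3, 80.3 and 80.9 CPM in Sham. Ppp3cb (ENSMUSG00000021816, protein-coding, chromosome 14, 20499364 to 20546573), which encodes the beta isoform that in mice is needed for the full hypertrophic response, measured 93.9, 94.2, 100.3 and 98.9 CPM in MR, and 109, 105, 90.8 and 102 CPM in Sham. Sham replicate 1 held the highest value of each gene, and the MR values of both lay among or below the Sham values. The log2 fold changes were −0.02 for Ppp3ca (SE 0.07, adjusted p = 0.919) and −0.07 for Ppp3cb (SE 0.07, adjusted p = 0.686). The 95% intervals of their ratios, 0.886 to 1.09 and 0.857 to 1.06, hold no change as large as that estimated for Rcan1. The balance of the isoforms overlapped as well, with Ppp3cb at 57.2% ± 2.09 of the summed level per kilobase in MR and 58.0% ± 1.35 in Sham (SD, n = 4). The log2 ratio of Ppp3cb to Ppp3ca averaged 0.24 ± 0.12 in MR and 0.28 ± 0.08 in Sham.

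Ppp3r1 (ENSMUSG00000033953, protein-coding, chromosome 11, 17159263 to 17200375), which encodes the calcium-binding regulatory subunit, measured 83.0, 86.8, 85.4 and 85.4 CPM in MR, and 101, 83.2, 80.4 and 86.5 CPM in Sham. The MR libraries lay close together inside the wider Sham range, which Sham replicate 1 extended upward. The log2 fold change was −0.04 (SE 0.07, adjusted p = 0.835). In the annotation 462 exon bases of Ppp3r1 are shared with Wdr92 on the same strand, so part of its count is uncertain.

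Of the NFAT genes, Nfatc3 (ENSMUSG00000031902, protein-coding, chromosome 8, 106058840 to 106130537) takes part in mice in hypertrophy driven by calcineurin. It measured 33.7, 31.0, 34.1 and 32.7 CPM in MR, and 28.1, 36.7, 33.9 and 35.3 CPM in Sham. The MR values lay inside the Sham range. Its log2 fold change was −0.03 (SE 0.08, adjusted p = 0.924), and 219 of its exon bases overlap Esrp2 on the other strand, so that reads there cannot be told apart without strand. Nfatc4 (ENSMUSG00000023411, protein-coding, chromosome 14, 55823144 to 55833943), the family member first found as a partner of GATA4 in the heart, was the least abundant at 4.45, 4.94, 4.76 and 5.27 CPM in MR, and 4.80, 4.62, 4.55 and 5.68 CPM in Sham. Its groups overlapped over most of their range, and its log2 fold change was −0.02 (SE 0.12, adjusted p = 0.970).

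Nfatc1 (ENSMUSG00000033016, protein-coding), which is needed in the endocardium for heart valves to form, measured 17.9, 19.2, 18.8 and 20.7 CPM in MR, and 15.5, 19.7, 19.0 and 16.9 CPM in Sham. Its groups overlapped, and MR was 0.11 higher on the log2 scale (SE 0.09, adjusted p = 0.599). Nfatc2 (ENSMUSG00000027544, protein-coding, chromosome 2, 168476410 to 168601657), best known from T cells and also present in heart muscle, measured 14.1, 15.7, 17.0 and 15.2 CPM in MR, and 11.8, 20.7, 18.4 and 20.5 CPM in Sham. The MR values lay below those of Sham replicates 2 to 4 and above that of Sham replicate 1. The log2 fold change was −0.20 (SE 0.15, adjusted p = 0.564), and without Sham replicate 1 it was −0.37 with an adjusted p of 0.0629. The 5 T cell markers summed to at most 2.45 CPM in MR and at most 2.67 CPM in Sham.

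**Figure D3:**
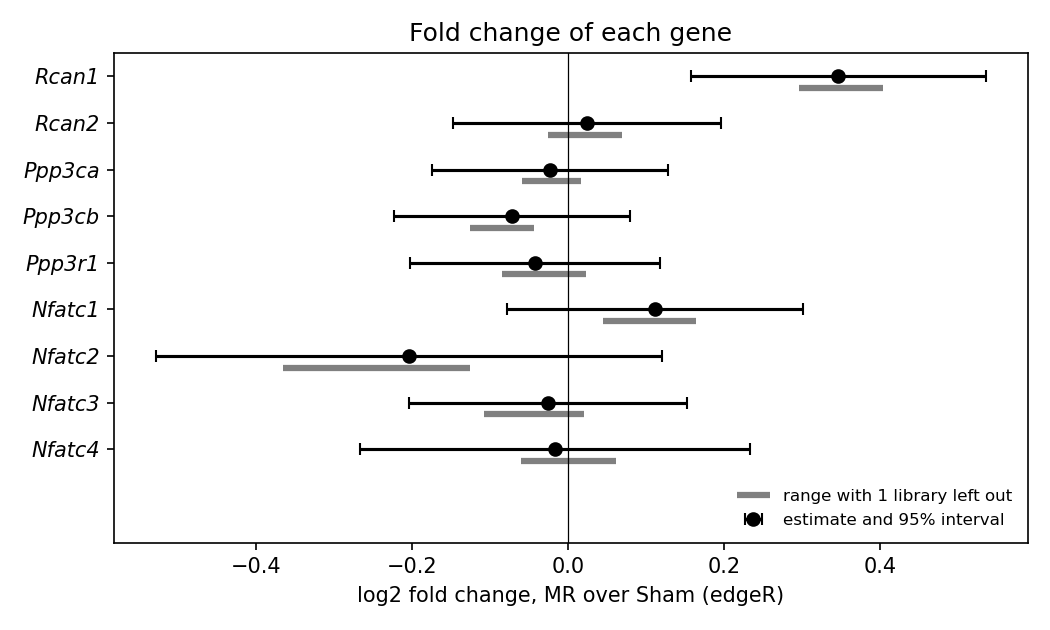
Log2 fold change of MR over Sham for each gene (points) with its 95% interval (bars) and the range of estimates with 1 library left out (grey). The interval of Rcan1 lay above 0, those of the other 8 genes included 0, and Nfatc2 had the widest.

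Across the 8 genes other than Rcan1, the log2 fold changes ran from −0.20 to 0.11 with a lowest adjusted p of 0.564 in edgeR. Over their 95% intervals the lowest limit was a ratio of 0.694, for Nfatc2, and the highest was 1.23, for Nfatc1. Misses of the threshold do not show that the levels were equal. Sham replicate 1 held the highest or the lowest value of 6 of the 9 genes. It was the highest for Ppp3ca, Ppp3cb and Ppp3r1 and the lowest for Nfatc1, Nfatc2 and Nfatc3. How often this library was the highest or the lowest over all genes was not counted, so the count is not shown to be particular to the 9. The spread within Sham was widest for Nfatc2, with a coefficient of variation of 7.72% in MR beside 23.4% in Sham.

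The 9 transcripts differed in level far more than they differed between groups. Per kilobase of exon, Rcan2 was the highest at 113 CPM on average over the 8 libraries (102 to 126). Ppp3r1 followed at 26.8 CPM (24.9 to 31.2) and Rcan1 at 22.7 CPM (17.9 to 27.2), and these neighbours overlapped, with Ppp3r1 above Rcan1 in 6 of 8 libraries. Ppp3cb at 11.3 CPM and Ppp3ca at 8.30 CPM per kilobase came next, with ranges that did not overlap. The NFAT genes stood below them, with Nfatc3 at 2.83, Nfatc1 at 2.47, Nfatc2 at 1.58 and Nfatc4 at 0.841 CPM per kilobase. The ranges of Nfatc3 and Nfatc1 overlapped, although Nfatc3 was above Nfatc1 within each of the 8. Exon length here is the union over annotated transcripts, so a gene with long exons that the heart does not use is set too low.

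**Figure D4:**
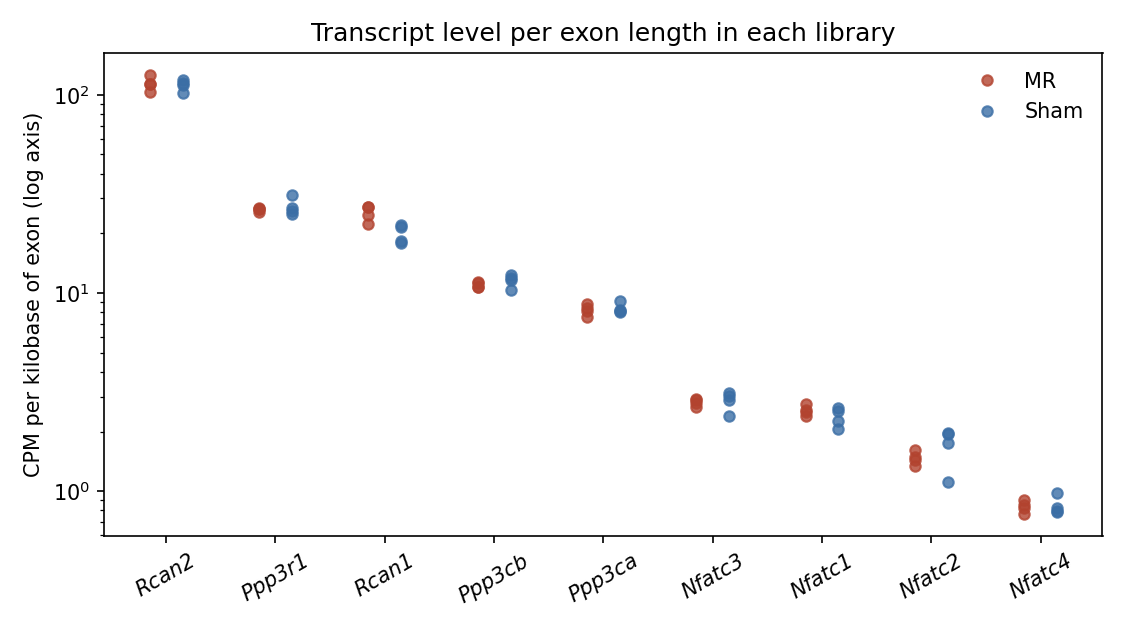
Level of each gene in CPM per kilobase of exon on a log axis, with a point per library, in order of the mean. Rcan2 averaged 113 and Nfatc4 averaged 0.841, a far wider span than that between the MR and Sham points of any gene.

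In the wider pathway, 2 of 44 tested genes rose in MR and 0 fell in edgeR, where 0.241% of all genes tested rose and 0.217% fell. The pathway genes were chosen with earlier results of these data known, so their counts beside these shares do not test the pathway. Of the 44, 8 had an unadjusted p under 0.05, against 15.1% of all genes tested. DESeq2 called 4 of them and limma-voom 5, where they called 4.14% and 2.75% of all genes tested. The lists hold 45 genes, and Ppp3r2, a subunit gene of the testis, was not tested because it had 2 counts in MR replicate 4 and 0 in the other libraries. The median log2 fold change of the 44 was 0.07.

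Of the 10 genes for calcineurin anchors and binding proteins, 1 rose, 0 fell and 9 did not pass in edgeR. Over all genes tested 0.241% rose and 0.217% fell. An unadjusted p under 0.05 in edgeR was seen for 1 of the 10, against 15.1% of all genes tested. Akap5, a scaffold that holds calcineurin and protein kinase A at the membrane, measured 7.22, 9.23, 7.73 and 6.95 CPM in MR, and 2.32, 3.91, 4.79 and 2.09 CPM in Sham. All MR libraries were above all Sham libraries, and the log2 fold change was 1.25 (SE 0.23, adjusted p = 0.0474). The call held in edgeR without Sham replicate 3 (adjusted p = 0.00147) and was lost with any of the other 7 libraries left out, with adjusted p-values up to 0.118. Cabin1, an inhibitor that binds calcineurin, was at 0.11 (adjusted p = 0.604), and Myoz1, a calsarcin of skeletal muscle, was at 0.82 (adjusted p = 0.382) with 11 to 19 counts in MR libraries and 4 to 12 in Sham libraries. The summed level of 5 skeletal muscle markers was low, at 1.31 to 1.52 CPM in MR and 0.878 to 1.23 CPM in Sham. Only 2 of the 5 had enough counts to be tested. Tnnt3 averaged 0.547 CPM in MR and 0.252 CPM in Sham, and Mylpf 0.726 and 0.621 CPM. The part of the summed level in the Myoz1 and Acta1 values was not tested.

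Of the 7 reported target genes of calcineurin or NFAT, 1 rose, 0 fell and 6 did not pass in edgeR. Over all genes tested 0.241% rose and 0.217% fell. An unadjusted p under 0.05 in edgeR was seen for 5 of the 7, 4 higher and 1 lower in MR, against 15.1% of all genes tested. Groups did not overlap for 4 of the 7, against 8.10% of all genes tested. The list was chosen with earlier results known, so these counts do not test it. Nppb, the gene for B-type natriuretic peptide, measured 128, 162, 189 and 185 CPM in MR, and 78.7, 92.5, 109 and 91.8 CPM in Sham. Its groups did not overlap, and it rose by 0.84 on the log2 scale (SE 0.12, adjusted p = 0.0200). The call was lost without MR replicates 2 and 3 and without Sham replicates 2 and 4, with adjusted p-values up to 0.0762. Acta1, the skeletal alpha-actin of the fetal heart, measured 636, 665, 800.3 and 751 CPM in MR, and 176, 197, 342 and 104 CPM in Sham, with an adjusted p of 0.0842. It was called without Sham replicate 3 (adjusted p = 0.00147), in DESeq2 (0.00019), in limma-voom (0.00501) and without robust moderation (0.0204). Myh7, the slow myosin heavy chain, measured 265, 242, 244 and 270 CPM in MR, and 320, 378, 306 and 616 CPM in Sham, with a log2 fold change of −0.67 (adjusted p = 0.168, and 0.0392 in limma-voom). Sham replicate 4 stood far above the other Sham libraries, and without it the log2 fold change of Myh7 was −0.39. Myh7 is close in sequence to Myh6 and overlaps antisense genes, so its value is uncertain. Nppa, the gene for the atrial peptide of the same family as Nppb, falls outside the rule for named genes and was chosen after its values were seen. It measured 81.5, 96.1, 205 and 81.4 CPM in MR, and 41.9, 43.8, 54.4 and 65.7 CPM in Sham. All MR libraries were above all Sham libraries, with MR replicate 3 far above the rest. The log2 fold change of Nppa was 1.17 (SE 0.36), and its adjusted p was 0.204 in edgeR, 0.0359 in DESeq2 and 0.0458 in limma-voom. Without MR replicate 3 the log2 fold change of Nppa was 0.75, with an adjusted p of 0.0837 in edgeR. Of the 865 exon bases of Nppa, 532 overlap the antisense gene Gm13054, so its value is uncertain too. The target genes listed here respond to many signals besides NFAT.

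The remaining 4 lists held 0 called genes in edgeR, DESeq2 and limma-voom, which called 0.458%, 4.14% and 2.75% of all genes tested. In edgeR 15.1% of all genes tested had an unadjusted p under 0.05. Among 10 genes for calcium inputs and calmodulin, 1 had an unadjusted p under 0.05 in edgeR, the calmodulin gene Calm3, at a log2 fold change of −0.18 (adjusted p = 0.292). Trpc1, a calcium-permeable channel, was at −0.13 (adjusted p = 0.480), and the channel Trpc6 had 7 to 16 counts in MR libraries and 3 to 12 in Sham libraries (adjusted p = 0.422). Among 8 genes for NFAT kinases and nuclear export, 1 had an unadjusted p under 0.05, Gsk3a, a kinase that returns phosphate to NFAT, at −0.18 (adjusted p = 0.284), while the kinase Mapk14 was at −0.12 and the export factor Xpo1 at 0.12 (adjusted p 0.415 and 0.481). Of 6 partners and competitors, 0 had an unadjusted p under 0.05, and Mef2c and Mef2a, which encode partners of NFAT, were at 0.14 and −0.13 (adjusted p 0.362 and 0.373). Homer3, which competes with calcineurin for NFAT in T cells, was at 0.16 (adjusted p = 0.622). On the other strand 874 exon bases of Homer3 overlap Ddx49 and 820 of Gsk3a overlap 9130221H12Rik. Reads there cannot be told apart without strand, so the values of Homer3 and Gsk3a are uncertain. Of the 3 tested relatives, 0 had an unadjusted p under 0.05, and Ppp3cc, Rcan3 and Nfat5, an NFAT-like factor that calcineurin does not control, were at 0.02, 0.09 and 0.14 (adjusted p 0.943, 0.732 and 0.574).

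**Figure D5:**
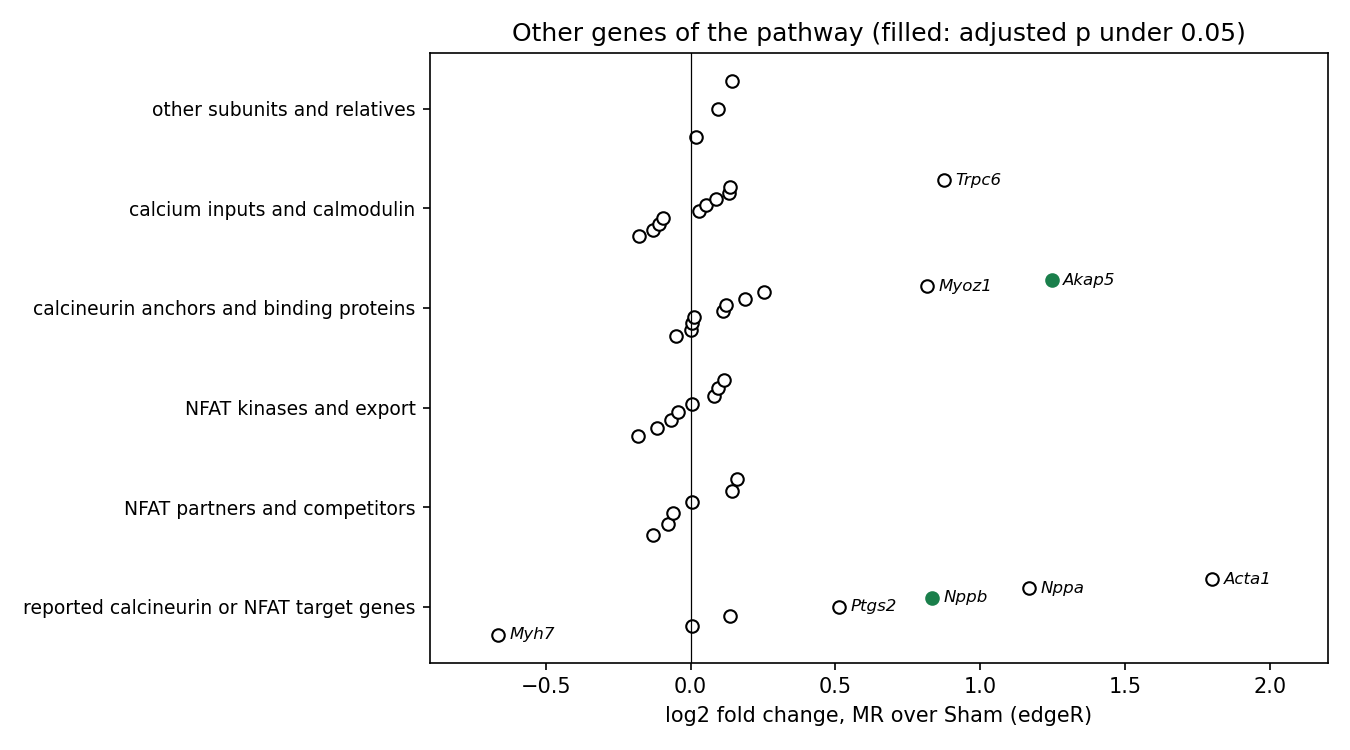
Log2 fold change of MR over Sham for the 44 tested genes of the wider pathway, a row for each list and a point for each gene, filled where the adjusted p in edgeR was under 0.05. The filled points are Akap5 at 1.25 and Nppb at 0.84, and the open points beyond 0.4 in either direction carry their names.

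The genes whose log2 CPM followed that of Rcan1 most closely over the 8 libraries, among 12191 compared, were Lyz2, Elk3, Ugp2, Nudt5 and Ckap4, with Pearson r of 0.99, 0.98, 0.97, 0.96 and 0.96. With the group means removed the same 5 had r of 0.97, 0.95, 0.90, 0.91 and 0.88. They were picked as the highest of many, and all genes of a library share its depth and handling, so these values describe likeness only. Lyz2 encodes the lysozyme of myeloid cells, Elk3 an ETS-family transcription factor, Ugp2 an enzyme that makes UDP-glucose, Nudt5 an ADP-sugar pyrophosphatase and Ckap4 a protein of the endoplasmic reticulum.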

How the data were processed

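The authors deposited raw read counts for each Ensembl mouse gene in each library. The submitters' processing notes name HISAT2 2.0.5 and mm10 and give no role for either. How reads were counted, with which annotation and strand setting, is not given in the sources used here. Columns were matched to libraries by title and groups taken from the treatment label. Symbols, coordinates and exon lengths came from GENCODE for GRCm38, the assembly that mm10 names (32350 of 33105 identifiers matched), and promoter sequences from RefSeq (GRCm38.p6).

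Genes were filtered with filterByExpr (minimum count 10, minimum total 15), scaled by TMM and tested in edgeR 4.0.16 (R 4.3.3) by its robust quasi-likelihood F test. Benjamini-Hochberg adjustment covered the 16603 genes that were left, with a threshold of 0.05. A standard error is the log2 fold change divided by the square root of F, and 95% intervals use its degrees of freedom. All adjusted p-values come from this test unless another tool is named. CPM uses the TMM-scaled library total. The ratio of 2 genes and likeness use log2 CPM with a prior count of 2. A single count equalled 0.0170 to 0.0236 CPM. Alternatives were DESeq2 1.42.0, limma-voom (limma 3.58.1) with quality weights, other scalings and filters, a length correction and leaving out each library. Scripts were tested on simulated data.

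Named genes were all 9 of the family, wider pathway genes that passed, and the 3 of each list with the lowest p, plus the 5 genes most like Rcan1 and the 5 most like Nfatc2, which had the lowest p among the others. Nppa and single cell type markers were named outside this rule, after their values were seen. The genes and lists were chosen with earlier results of these data known.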

Additional observations from a re-analysis of the deposited data

How the results depend on the processing

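Of 144 values of the 9 genes under the alternatives, 125 kept their direction and their side of the threshold, 4 passed in the same direction (all Rcan1) and 15 changed sign, none of them past the threshold. Where values changed sign they were near 0. With libraries scaled by totals the log2 fold changes were 0.022 for Ppp3ca, 0.0028 for Ppp3r1, 0.018 for Nfatc3 and 0.027 for Nfatc4, and with the length trend removed they were −0.014 for Rcan2 and −0.012 for Ppp3cc. With 1 library left out the log2 fold changes ran from −0.026 to 0.070 for Rcan2, −0.058 to 0.017 for Ppp3ca and −0.085 to 0.024 for Ppp3r1. They ran from −0.11 to 0.020 for Nfatc3 and −0.060 to 0.061 for Nfatc4. Ppp3cc, a wider pathway gene outside the 9, was at −0.012 with the length trend removed. With 1 library left out Ppp3cc ran from −0.015 to 0.062. The number of called genes among the 9 was 1 without a filter, 1 in DESeq2 and 1 in limma-voom, and 0 to 1 when single libraries were left out. In the wider pathway it was 4 in DESeq2, 5 in limma-voom and 0 to 3 when single libraries were left out. Over all genes it was 936 of 30605 tested without a filter. Of 16603 tested it was 688 (4.14%) in DESeq2, 457 (2.75%) in limma-voom and 304 with the length trend removed. With a library left out it was 3 to 887, among 16798 to 16868 genes tested. The cause was not tested. No paired analysis was possible because the labels give the groups no shared replicate numbers. Fits with a library left out have 3 libraries in 1 group, which weakens the test. The lowest count of the 9 genes was 195, for Nfatc4, and what depth adds to the spread was not tested.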

Other observations

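The genes whose log2 CPM followed that of Nfatc2 most closely over the 8 libraries were Ctdsp2, Gipc3, Ambra1, Tec and Rasa3, with Pearson r of 0.98, 0.97, 0.97, 0.96 and 0.95. With the group means removed their r was 0.98, 0.97, 0.97, 0.95 and 0.95. These values describe likeness only, among the 12191 genes compared, because all genes of a library share its depth and handling.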
